A study of Homo sapiens with 4 samples.

Results

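The noradrenergic core transcription factors PHOX2A, HAND1, HAND2, GATA2, GATA3, ISL1, TBX2 and TFAP2B were examined after METTL14 was knocked down in SK-N-BE(2) neuroblastoma cells. These 8 genes were chosen by name, as transcription factors of the sympathetic (noradrenergic) neuroblastoma circuit, and are 8 of the 60671 genes in the deposited count table. All 8 were expressed highly enough to be tested.

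Neuroblastoma arises from the sympathetic lineage of the neural crest. There, BMP signals switch on a set of transcription factors that bind their own and each other's regulatory regions, hold the cells in a noradrenergic state and drive the enzymes that make noradrenaline. The members belong to 5 families of DNA-binding proteins: homeodomain (PHOX2A and the LIM-homeodomain factor ISL1), basic helix-loop-helix (HAND1 and HAND2), GATA zinc finger (GATA2 and GATA3), T-box (TBX2) and AP-2 (TFAP2B). METTL14 is the RNA-binding partner of METTL3 in the writer complex of N6-methyladenosine (m6A), an RNA mark that can change the splicing, decay and translation of a transcript.

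SK-N-BE(2) is an established human line with MYCN amplification. RNA sequencing compared 2 libraries of cells carrying a control short hairpin RNA (shNC) with 2 libraries of cells carrying a hairpin against METTL14 (shMETTL14). According to the methods of the study the hairpins were delivered by lentivirus from pLKO.1 and the cells were selected with puromycin. The labels name neither the METTL14 hairpin used nor whether replicates came from separate cultures, so p-values measure only the spread between these libraries, which may be technical.

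Between 18925786 and 19886214 reads per library were counted in genes. Libraries of 1 group lay close together, with a mean chi-square per gene of 2.8 and 2.3 within the groups against 34.1 to 35.2 between them, where sampling noise alone gives about 1. METTL14 itself stood at 37.78 and 39.38 CPM (counts relative to TMM-scaled library size) in the shNC libraries against 15.47 and 16.68 CPM in the shMETTL14 libraries. Both shMETTL14 libraries lay below both shNC libraries, with 41.7% of the control level left (log2 fold change -1.26, SE 0.0832, edgeR adjusted p 3.64e-11). Values were compared by the edgeR quasi-likelihood test across 16309 genes, with the threshold for a call set at a Benjamini-Hochberg adjusted p of 0.05.

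Noradrenergic identity was checked against its markers first. All 8 factors were abundant, as were TH, DBH, DDC, CHGA and CHGB, the noradrenaline-making enzymes and granule proteins. CHGA, for example, lay between 569.4 and 868 CPM. Of the mesenchymal regulators, PRRX1, a defining factor, had at most 3 counts in any library, whereas JUN (216.4 to 220.9 CPM), TWIST1 (130.9 to 152.1 CPM) and NOTCH2 (99.22 to 107.2 CPM) were well expressed. Of the Schwann cell precursor markers, SOX10 and CDH19 had 0 counts in all 4, which at a floor of 3 counts limits each to 3 counts in a library of this depth. The summed level of the 22 mesenchymal regulators was 679.8 to 705.4 CPM in shNC and 670.9 to 683.2 CPM in shMETTL14 libraries, and that of the 7 Schwann cell precursor markers 4.856 to 5.82 CPM and 3.83 to 4.261 CPM. The 8 factors held 0.26% to 0.265% of all gene counts in shNC and 0.228% to 0.231% in shMETTL14 libraries.

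The levels of the 8 factors relative to each other were then compared per length, as counts per kilobase of exon scaled to the same sum in each library (a TPM-like level). In the control cells PHOX2A ranked first at 909 ± 30 (SD, n = 2), followed by HAND2 at 647 ± 4.8. GATA3 at 373 ± 12 and HAND1 at 363 ± 11 came next, and the ranges of these neighbours overlapped. GATA2 at 165 ± 9.6 and TFAP2B at 163 ± 6.8 overlapped as well. ISL1 at 121 ± 2.6 and TBX2 at 90.8 ± 2.6 were lowest, and each lay outside the control range of the factor above it. Even TBX2 was above 90.9% of the tested genes on this scale.

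In the shMETTL14 cells PHOX2A at 764 ± 7 and HAND2 at 488 ± 3.4 still ranked first and second, and TBX2 at 72 ± 0.66 still ranked last. HAND1 at 364 ± 0.11 moved ahead of GATA3 at 308 ± 4.2. ISL1 at 136 ± 1.2 moved ahead of TFAP2B at 117 ± 0.81. GATA2 stood at 163 ± 6.7. This scale carries no TMM correction and serves only for levels within a library, not for differences between groups. With the length of the longest coding transcript in place of all exons, the lowest 3 genes came in the order TFAP2B, TBX2, ISL1 in control cells and ISL1, TBX2, TFAP2B in shMETTL14 cells.

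**Figure D1:**
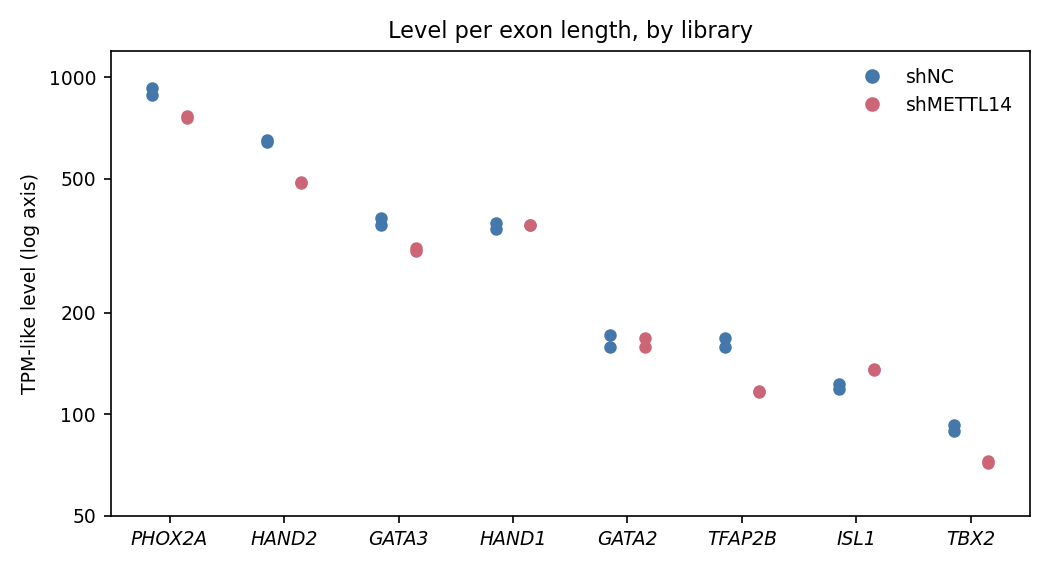
Level of each factor per kilobase of exon, scaled to the same sum in each library (TPM-like, log axis), with one point per library of shNC and shMETTL14 cells. PHOX2A and HAND2 stand highest, from 486 to 930, and TBX2 lowest, from 71.5 to 92.7.

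The comparison of shMETTL14 with shNC asked whether the circuit changed when METTL14 was depleted. Of the 8 factors, 7 were called, against 52.5% of all 16309 tested genes. TFAP2B, HAND2, TBX2, GATA3 and PHOX2A fell, where 25.3% of all tested genes fell, and ISL1 and HAND1 rose, where 27.2% of all rose. GATA2 was not called. The changes were small: none of the 8 reached 2-fold, which 8.79% of all tested genes did when called. The median log2 fold change of the 8 was -0.15, against -0.001 over all tested genes, and that of the absolute values 0.19 against 0.30. In none of the 8 did the groups overlap, a pattern seen in 75.5% of all tested genes.

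Abundant genes are measured more precisely, so the 1739 tested genes at least as abundant as ISL1 give a closer background. Of these, 71.9% were called, and 1.09% were called and changed by at least 2-fold. Their median absolute log2 fold change was 0.195, close to that of the 8 factors, and their median log2 fold change was 0.06. The call rate of the factors is therefore read beside that of abundant genes, and nothing particular to the list is drawn from it. Shares of the other lists below stand beside the 52.5% of all tested genes and are not matched for abundance. None of them is read as a trait of its list. In bulk RNA, fewer cells of a type and less RNA per cell cannot be told apart.

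Of the homeodomain factors, PHOX2A fell slightly and ISL1 rose. PHOX2A (ENSG00000165462), an activator of the noradrenaline-synthesis genes, is annotated at chr11:72239077-72245664 (minus strand, GENCODE 29 on GRCh38, as for all genes here) and has 3 exons. Its level was 480.3 and 507.9 CPM in the shNC libraries and 450.3 and 447.8 CPM in the shMETTL14 libraries. Both shMETTL14 libraries were lower, and the wider spread was that of the controls. The log2 fold change was -0.14 (SE 0.0391, adjusted p 0.0053), 90.9% of control. The call was lost without shNC library 2 (-0.09) and without shMETTL14 library 2 (-0.13).

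ISL1 (ENSG00000016082), which takes part in sympathetic and motor neuron differentiation, is annotated at chr5:51383391-51394738 (plus strand) and has 6 exons. It measured 107.3 and 105.1 CPM in the shNC libraries and 127.7 and 130.3 CPM in the shMETTL14 libraries. Both shMETTL14 libraries were higher and replicates were nearly equal. ISL1 rose to 122% of control (log2 fold change 0.28, SE 0.0444, 95% interval 0.19 to 0.37, adjusted p 1.5e-05), the largest increase among the 8.

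Of the basic helix-loop-helix factors, HAND2 fell, while HAND1 rose slightly with TMM scaling but was not called in several other fits. HAND2 (ENSG00000164107), required for noradrenergic differentiation of sympathetic precursors, is annotated at chr4:173524969-173530229 (minus strand) and has 2 exons. It measured 709.6 and 709.2 CPM in the shNC libraries and 574.4 and 584.4 CPM in the shMETTL14 libraries. The control libraries were nearly identical and both shMETTL14 libraries lay well below them. HAND2 fell to 81.7% of control (log2 fold change -0.29, SE 0.0365, 95% interval -0.37 to -0.22, adjusted p 6.79e-07).

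HAND1 (ENSG00000113196), the close relative of HAND2, is annotated at chr5:154474972-154478264 (minus strand) and also has 2 exons. It measured 195.1 and 189.1 CPM in the shNC libraries and 207.6 and 209 CPM in the shMETTL14 libraries. Both shMETTL14 libraries were higher than both controls, and the groups did not overlap. The log2 fold change was 0.12 (SE 0.0406, adjusted p 0.0198), 108% of control. It was 0.05 with upper quartile scaling (adjusted p 0.328) and 0.07 with library size alone (adjusted p 0.148), and the call was also lost with DESeq2 and without shNC library 2 (0.10), shMETTL14 library 1 (0.13) or shMETTL14 library 2 (0.12). Counts of HAND2 were 364% and 375% of those of HAND1 in the shNC libraries and 277% and 280% in the shMETTL14 libraries, a ratio that needs no scaling between libraries. No library of 1 group reached the range of the other.

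Of the GATA factors, GATA3 fell and GATA2 was not called. GATA3 (ENSG00000107485), a zinc finger factor needed for sympathetic neuron survival and TH expression, is annotated at chr10:8045378-8075203 (plus strand) and has 6 exons. It measured 397.1 and 382.9 CPM in the shNC libraries and 343.9 and 353.2 CPM in the shMETTL14 libraries. Both shMETTL14 libraries were lower. GATA3 fell to 89.4% of control (log2 fold change -0.16, SE 0.0391, adjusted p 0.00141).

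GATA2 (ENSG00000179348), which acts earlier in the same lineage, is annotated at chr3:128479427-128493185 (minus strand) and has 6 exons. It measured 231.7 and 215.6 CPM in the shNC libraries and 231.9 and 247.6 CPM in the shMETTL14 libraries. The groups only just failed to overlap, since shNC library 1 and shMETTL14 library 1 were almost equal. The log2 fold change of 0.10 (SE 0.0449, 95% interval 0.007 to 0.19, adjusted p 0.0661) was not called. Without shNC library 1 (0.15) or shMETTL14 library 1 (0.15) it was called, and without shNC library 2 (0.05), without shMETTL14 library 2 (0.06) or with upper quartile scaling (0.03) it was not. Counts of GATA3 were 171% and 178% of those of GATA2 in the shNC libraries and 148% and 143% in the shMETTL14 libraries, again with no overlap. With 2 libraries a group the smallest two-sided p of an exact permutation test is 0.333, so none is given for ratios of this kind.

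TFAP2B and TBX2 were both lower after METTL14 knockdown. TFAP2B (ENSG00000008196), an AP-2 factor of the sympathoadrenal lineage, is annotated at chr6:50818723-50847613 (plus strand) and has 7 exons. It measured 313.4 and 298.4 CPM in the shNC libraries and 237.2 and 236.6 CPM in the shMETTL14 libraries. The shMETTL14 libraries were almost equal and lay far below both controls. TFAP2B fell to 77.4% of control (log2 fold change -0.37, SE 0.0404, 95% interval -0.45 to -0.29, adjusted p 9.99e-08), the largest change among the 8. Even so, 41.6% of all tested genes, and 21.7% of the genes at least as abundant as ISL1, had a larger absolute log2 fold change.

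TBX2 (ENSG00000121068), a T-box repressor that sustains proliferation, is annotated at chr17:61399896-61409466 (plus strand) and has 7 exons. It measured 169.4 and 164.1 CPM in the shNC libraries and 141.5 and 144.4 CPM in the shMETTL14 libraries. Both shMETTL14 libraries were lower. TBX2 fell to 85.7% of control (log2 fold change -0.22, SE 0.0425, adjusted p 0.000142).

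**Figure D2:**
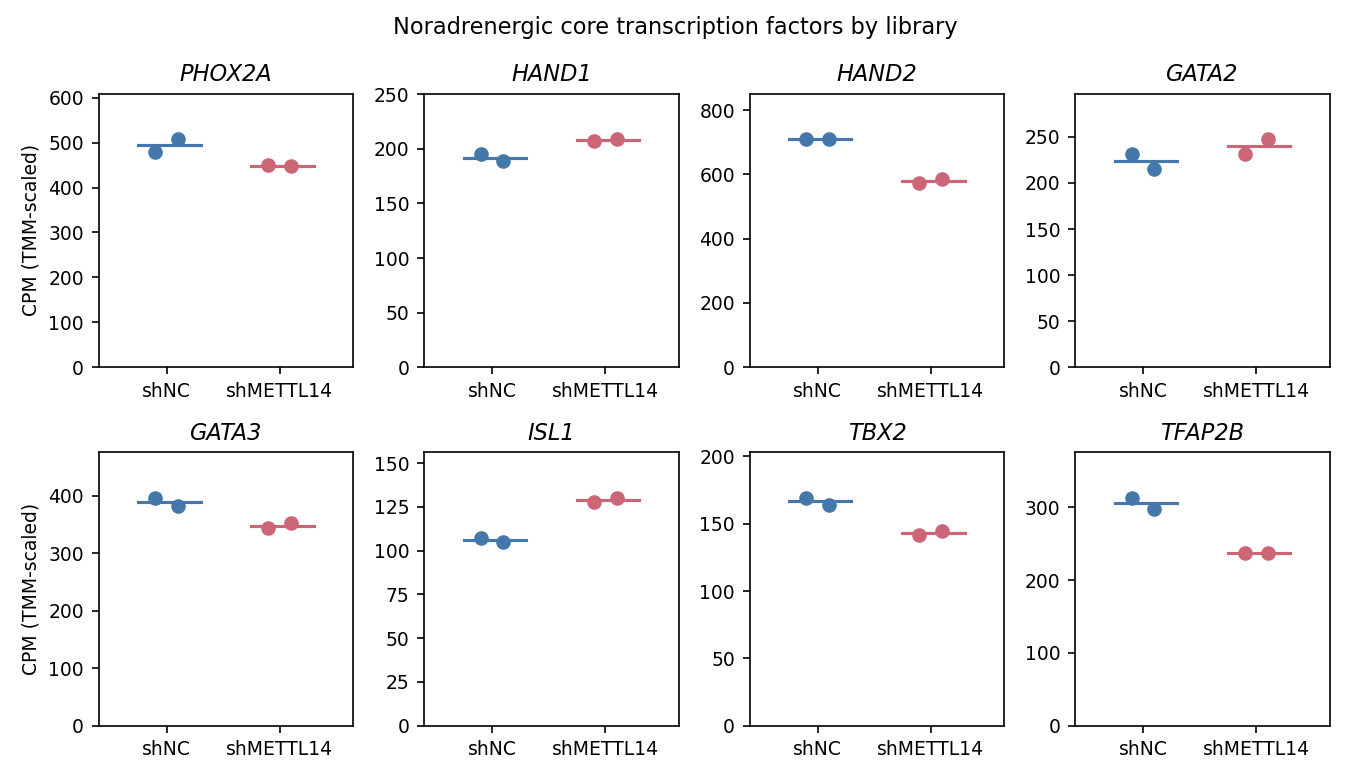
CPM of each factor in the 4 libraries, 1 panel per gene with its own axis from 0, with points for libraries and lines for group means. TFAP2B, from 298.4 and 313.4 in shNC to 236.6 and 237.2 in shMETTL14, shows the largest step, and ISL1 steps upward from 105.1 and 107.3 to 127.7 and 130.3.

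Scaling mattered for the weakest of these values. Under TMM, 51.8% of all called genes were higher in shMETTL14 cells, and under upper quartile scaling 41.7%, with a median shift of -0.07 in log2 fold change. TFAP2B, HAND2, TBX2 and GATA3 stayed lower, and ISL1 stayed higher, and each stayed called in all 7 alternative fits and the 4 fits that left out 1 library. TFAP2B ranged from -0.44 to -0.34, HAND2 from -0.36 to -0.28 and ISL1 from 0.21 to 0.30 in them.

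Long noncoding RNAs are transcribed from the opposite strand at 5 of these loci. At each, the absolute log2 fold change of the noncoding RNA exceeded that of the factor, by the most at HAND2 and ISL1. Of HAND2-AS1, ISL1-DT, TBX2-AS1, GATA3-AS1 and GATA2-AS1, 4 were called and all 4 were lower, against 25.3% lower over all tested genes. That background holds coding genes too, and noncoding RNAs were not compared as a class. Among other noncoding RNAs starting within 500 kb of a member, several were not called, and every called one was lower. The largest such fall was -1.85 (SE 0.498), in a lincRNA 367 kb from HAND2. A fall was thus not particular to the partners. The fifth, GATA2-AS1, had a log2 fold change of -0.22 (adjusted p 0.0749) and was not called.

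HAND2-AS1 measured 626.2 and 618 CPM in the shNC libraries and 285.7 and 279.3 CPM in the shMETTL14 libraries. Both shMETTL14 libraries held less than either control by a wide margin. HAND2-AS1 fell to 45.4% of control (log2 fold change -1.14, SE 0.0383, adjusted p 5.27e-16). Its counts were 88.2% and 87.1% of those of HAND2 in the shNC libraries and 49.7% and 47.8% in the shMETTL14 libraries. The partner thus fell by 0.85 more than HAND2 on the log2 scale, against a spread of 0.01 (SD of the log2 ratio in shNC) and 0.04 (in shMETTL14). The exons of both genes share 867 bases, 24.1% of the exonic bases of HAND2 and 4.09% of those of HAND2-AS1, and reads there may have been lost as ambiguous or given to either gene if counting ignored strand. The strand setting was not given in the sources used here.

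ISL1 and its divergent transcript ISL1-DT moved in opposite directions. ISL1-DT measured 39.89 and 36.82 CPM in the shNC libraries and 21.19 and 22.6 CPM in the shMETTL14 libraries, while ISL1 was higher in both shMETTL14 libraries. ISL1-DT fell to 57.1% of control (log2 fold change -0.81, SE 0.0801, adjusted p 2.28e-08). Its counts were 37.2% and 35% of those of ISL1 in the shNC libraries and 16.6% and 17.3% in the shMETTL14 libraries. The log2 ratio fell by 1.09, against SDs of 0.06 in shNC and 0.05 in shMETTL14. The genes share 0 exonic bases, and their GENCODE starts lie 59 bases apart.

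At the other 3 loci the fold changes of the partners were smaller than those of HAND2-AS1 and ISL1-DT. GATA2-AS1 was not called, and the ratio of partner to factor overlapped between groups at GATA3 and TBX2. A further lincRNA overlaps GATA3 on the same strand and starts 6.2 kb from the start of GATA3. This lincRNA had a log2 fold change of -1.23 (SE 0.188, edgeR adjusted p 1.05e-05). Whether it shares reads with GATA3 was not tested. TBX2-AS1 had a log2 fold change of -0.36 (adjusted p 0.0139), which was -0.13 without shMETTL14 library 1 and -0.25 without shNC library 1, both no longer called. GATA3-AS1 had a log2 fold change of -0.19 (adjusted p 0.0332), -0.12 without shNC library 2 and -0.13 without shMETTL14 library 1, again no longer called. Neither was called with DESeq2. GATA3-AS1 counts were 9.82% and 11.1% of those of GATA3 in the shNC libraries and 10% and 10.5% in the shMETTL14 libraries, so the ranges overlapped, and TBX2-AS1 counts were 14.6% and 13.1% of those of TBX2 in shNC and 10.7% and 14.6% in shMETTL14 libraries. GATA2-AS1 counts were 8.96% and 8.87% of those of GATA2 in shNC and 6.74% and 7.55% in shMETTL14 libraries.

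**Figure D3:**
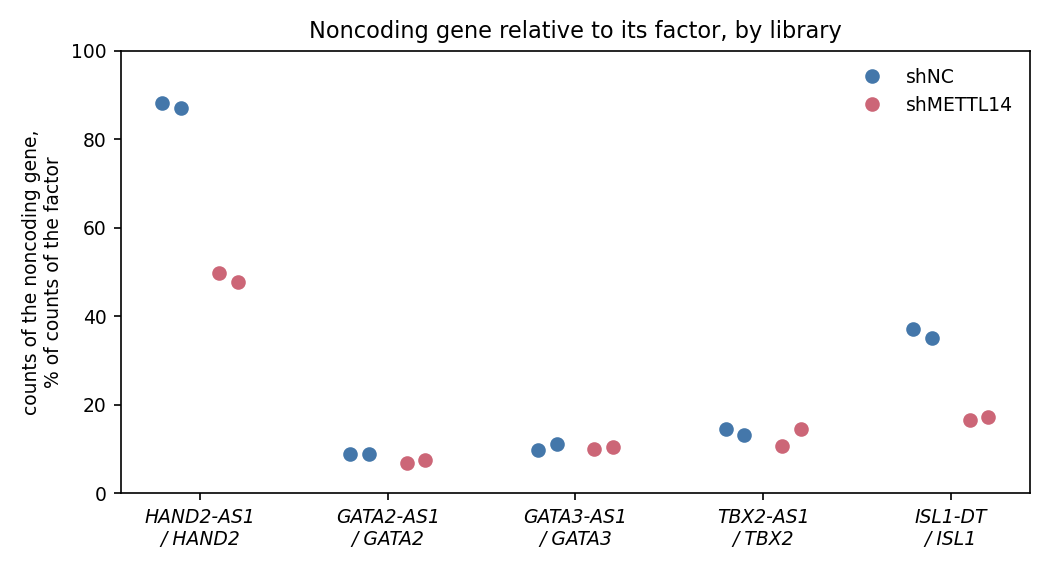
Counts of each noncoding gene as a percent of the counts of the factor at its locus, in each of the 4 libraries. HAND2-AS1 drops from 88.2% and 87.1% to 49.7% and 47.8% of HAND2, and ISL1-DT from 37.2% and 35% to 16.6% and 17.3% of ISL1.

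The sequence just upstream of HAND2 and ISL1 is shown because a noncoding partner that changed differently starts beside each of them. RefSeq places a HAND2-AS1 start with 228 bases between it and the start of HAND2, and the start of ISL1-DT with 115 bases between it and that of ISL1. The HAND2 sequence covers chr4:173530230-173530479 on the minus strand and the ISL1 sequence chr5:51383198-51383390 on the plus strand (RefSeq, GRCh38.p14), each printed 5′ to 3′ in the direction of the factor, up to its GENCODE start. Capitals mark matches to the words named below.
HAND2: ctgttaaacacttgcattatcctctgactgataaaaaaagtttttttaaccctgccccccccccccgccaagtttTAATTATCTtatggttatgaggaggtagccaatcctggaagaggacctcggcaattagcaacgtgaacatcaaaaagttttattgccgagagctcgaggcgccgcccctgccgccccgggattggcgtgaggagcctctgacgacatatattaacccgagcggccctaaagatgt
ISL1: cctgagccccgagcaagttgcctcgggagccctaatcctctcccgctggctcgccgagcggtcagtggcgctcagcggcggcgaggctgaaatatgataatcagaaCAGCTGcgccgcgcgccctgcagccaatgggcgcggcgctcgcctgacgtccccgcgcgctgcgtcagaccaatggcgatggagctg
In HAND2 the capitals hold the homeodomain word TAATTA, which overlaps the GATA word AGATAA read on the other strand. In ISL1 they mark the E-box CAGCTG, a basic helix-loop-helix word.

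Windows of the 250 bases before each RefSeq start were searched on both strands for words of the members' own families. Windows were found for 7 of the 8 members, with TBX2 not among them. Over all 35116 windows, 9.17% held the GATA word AGATAA, 14% the E-box CAGCTG, 12.2% the E-box CATCTG and 6.34% the E-box CACGTG. The homeodomain word TAATTA was in 4.35%, the T-box word AGGTGT in 9.57% and the AP-2 word GCCNNNGGC in 19.8%. HAND2 and ISL1 each held the GATA word, in ISL1 between the GENCODE and the RefSeq start. The AP-2 word was found in the HAND1 window, in both GATA2 windows and in 3 of 6 GATA3 windows, and the T-box word in the PHOX2A window and in 1 GATA3 window. Besides ISL1, the E-box CAGCTG was found in a GATA2 window and a GATA3 window, and the E-box CACGTG in another GATA3 window. The TFAP2B window held none of the 7 words. Such matches describe the letters only. The HAND2 and TFAP2B windows were poor in G and C, at 49.6% and 40.8%, where the median of all windows was 58.0%, and that of PHOX2A was rich, at 73.2%.

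The word GGACT, a form of the sequence at which the METTL3 and METTL14 complex methylates adenosine, was counted in the longest coding transcript of each factor. The density was 1.73 per kilobase in HAND1, 1.22 in ISL1, 1.18 in PHOX2A, 1.08 in HAND2, 0.961 in GATA3, 0.891 in GATA2 and 0.866 in TFAP2B, and TBX2 had 0 such words. HAND1, ISL1, HAND2, GATA3 and GATA2 held 3 words each, so their densities differ by transcript length alone. PHOX2A held 2 words and TFAP2B 5. The median of 12783 tested coding genes was 0.926 per kilobase. No m6A was measured in these libraries. The study mapped m6A separately in shNC and shMETTL14 SK-N-BE(2) cells, by sequencing RNA pulled down for the mark (MeRIP-seq). Those data were not used here.

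Other transcription factors of the noradrenergic lineage changed in both directions. Of 12 regulators listed by role, 11 were tested and 8 were called, 3 higher and 5 lower, against 52.5% of all tested genes, with a median log2 fold change of -0.04. DACH1 fell from 1.957 and 1.932 CPM to 0.3575 and 0.2598 CPM, a log2 fold change of -2.63 (SE 0.433). SATB1, a chromatin organiser, fell by 0.47 (SE 0.0441, adjusted p 9.56e-09).

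MYCN, the amplified oncogene of this line, rose from 2637 and 2596 CPM to 3153 and 3193 CPM (log2 fold change 0.28, SE 0.0334, adjusted p 3.84e-07). SOX11, a SOX factor of immature sympathetic cells, rose by 0.41 (SE 0.046), and KLF7 by 0.27 (SE 0.0414). INSM2 and ZNF536 fell by 0.33 and 0.41. The increases here included genes as abundant as the core factors.

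The proteins that pair with the core factors also split. Of 24 cofactors and dimer partners, 23 were tested and 16 called, 7 higher and 9 lower, a share of 69.6% beside 52.5% of all tested genes, with a median log2 fold change of 0.002. The E proteins TCF4 and TCF12, which dimerise with HAND factors, fell by 0.88 (SE 0.0445, adjusted p 4.77e-13) and 0.60 (SE 0.0389, adjusted p 3.11e-11). TCF4 went from 184.2 and 176.8 CPM to 96.58 and 99.45 CPM. The E protein TCF3 had a log2 fold change of only -0.10 (SE 0.0399, edgeR adjusted p 0.0477), a call that several alternative fits lost. ID1, an inhibitor that sequesters E proteins, fell by 0.84 (SE 0.0504), from 121.4 and 131.4 CPM to 69.25 and 71.81 CPM. ID3 fell by 0.33 (SE 0.0538) and ID2 by 0.23 (SE 0.0492), whereas ID4 rose by 1.92 (SE 0.388) to no more than 2.911 CPM. The ID4 value rested on few counts and was 3.09 without shNC library 1 and 1.31 without shNC library 2.

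LIM-only proteins bridge GATA, helix-loop-helix and LIM-homeodomain factors. LMO2 rose from 0.6522 and 1.044 CPM to 4.137 and 4.832 CPM (log2 fold change 2.40, SE 0.289, adjusted p 3.99e-07). LMO4 rose from 29.35 and 32.22 CPM to 53.42 and 54.35 CPM (0.81, SE 0.0688, adjusted p 2.24e-09), and LMO1, a known neuroblastoma susceptibility gene, rose by 0.40 (SE 0.0884, adjusted p 0.000654). LDB1, the adaptor that these proteins bind, had a log2 fold change of -0.02 (95% interval -0.11 to 0.07) and was not called. LMO3 had at most 2 counts in any library.

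Close relatives of the members were mostly low. Of 19 paralogs, 15 were too low to test. Among the 4 tested, 3 were called, 1 higher and 2 lower, and TBX20 fell from 19.17 and 20.63 CPM to 14.86 and 14.91 CPM (log2 fold change -0.42, SE 0.0954, adjusted p 0.000865). TBX6 had a log2 fold change of -0.57 (adjusted p 0.0118) and TBX3 of 0.16 (adjusted p 0.0132), calls that were both lost with DESeq2 and without shMETTL14 library 2 (-0.51 and 0.16), and also without shNC library 1 (TBX6, -0.52) and without shNC library 2 (TBX3, 0.12). The TBX3 call was also lost with upper quartile scaling (0.09) and library size alone (0.11). GATA6 was not called, at a log2 fold change of 0.49 (adjusted p 0.106). TFAP2A and TFAP2C, the AP-2 relatives of TFAP2B, had at most 8 counts in any library.

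Sympathetic effector genes, many of them known targets of the circuit, were called in both directions. Of 31, 29 were tested and 23 called, 13 higher and 10 lower, a share of 79.3% beside 52.5% of all tested genes (27.2% higher, 25.3% lower), and the median log2 fold change was 0.03. In the noradrenaline pathway, TH, the rate-limiting enzyme, fell from 135.5 and 133.3 CPM to 104.6 and 102 CPM (log2 fold change -0.38, SE 0.0444, adjusted p 2.67e-07). DBH, which makes noradrenaline from dopamine, fell from 135.9 and 131.3 CPM to 77.68 and 77.11 CPM (-0.79, SE 0.0461, adjusted p 5.54e-12). DDC, the enzyme between them, had a log2 fold change of -0.07 (95% interval -0.15 to 0.01, adjusted p 0.149) and was not called.

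The vesicular monoamine transporters moved apart. SLC18A2 fell from 14.4 and 13.63 CPM to 3.269 and 3.221 CPM (log2 fold change -2.11, SE 0.144, adjusted p 6.59e-11), and overlaps the gene PDZD8. SLC18A1 rose from 10.34 and 8.669 CPM to 16.6 and 17.09 CPM (0.82, SE 0.114, adjusted p 2.63e-06). The granule proteins CHGA and CHGB fell by 0.53 (SE 0.043) and 0.59 (SE 0.0422). SCG2, a further granule protein of the list, had a log2 fold change of -0.06 (edgeR adjusted p 0.163) and was not called. The noradrenaline transporter SLC6A2 rose by 0.34 (SE 0.0434).

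The largest effector changes were in a receptor and a neuropeptide. GFRA3, a co-receptor for artemin, fell from 42.95 and 44.55 CPM to 5.056 and 4.988 CPM (log2 fold change -3.12, SE 0.1), and NPY, the sympathetic co-transmitter, rose from 1.856 and 1.723 CPM to 13.69 and 15.59 CPM (3.03, SE 0.167). The neuronal genes PRPH, GAP43 and STMN2 rose by 0.65, 0.47 and 0.35. In each of these genes the shMETTL14 libraries did not overlap the shNC libraries, a pattern of 75.5% of all tested genes.

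**Figure D4:**
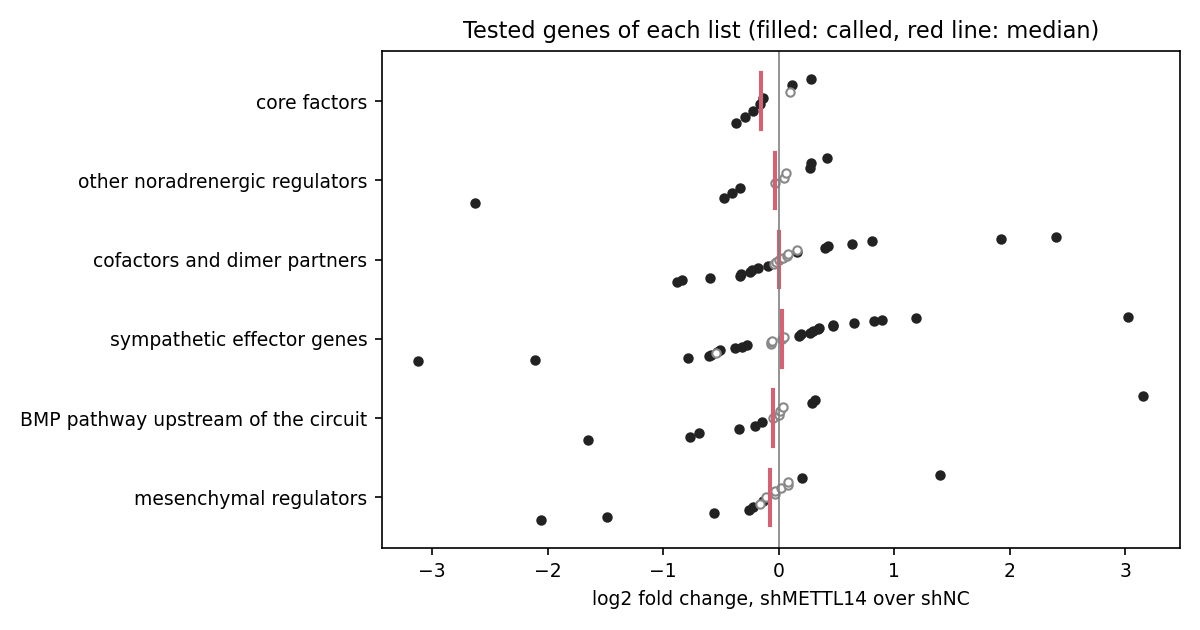
Log2 fold change (shMETTL14 over shNC) of the tested genes of 6 of the lists, with filled points for called genes and a red line at the median of the whole list; genes not reported here have no point. The core factors lie between -0.37 and 0.28, while the effector genes reach from -3.12 (GFRA3) to 3.03 (NPY).

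Upstream, BMP signalling induces the circuit in sympathetic precursors. Of 18 genes of the pathway, 13 were tested and 9 called, 3 higher and 6 lower, a share of 69.2% beside 52.5% of all tested genes, with a median log2 fold change of -0.05. GREM1, a secreted BMP antagonist, rose from 18.81 and 20.21 CPM to 170.4 and 178 CPM (log2 fold change 3.16, SE 0.0574, adjusted p 2.06e-20). The ligand BMP5 fell by 0.76 (SE 0.0795), and the receptor BMPR1B fell from 243.7 and 247.5 CPM to 155.3 and 149.4 CPM (-0.69, SE 0.0413, adjusted p 8.11e-12). The receptor BMPR2 fell by 0.34 and the signal transducer SMAD1 rose by 0.32.

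Of the 22 mesenchymal regulators, 16 were tested and 9 called, 3 higher and 6 lower, a share of 56.2% beside 52.5% of all tested genes, with a median log2 fold change of -0.07. FOSL1, an AP-1 factor, rose by 1.39 (SE 0.281) to a level of 3.221 CPM at most, SNAI2 fell by 0.56 (SE 0.0954), and BHLHE41, which overlaps SSPN on the opposite strand, fell by 1.49 (SE 0.276). The BHLHE41 value was -2.21 without shMETTL14 library 1 and -1.01 without shMETTL14 library 2. Of the Schwann cell precursor markers 2 were tested, and 1, S100B, was called, at a log2 fold change of -0.62 (adjusted p 0.0483) that was no longer called with DESeq2, without a filter on low counts or without shNC library 1 (-0.53), shNC library 2 (-0.71) or shMETTL14 library 1 (-0.34). Whether RNA of other cell states had a part in the changes of the core factors was not tested.

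**Figure D5:**
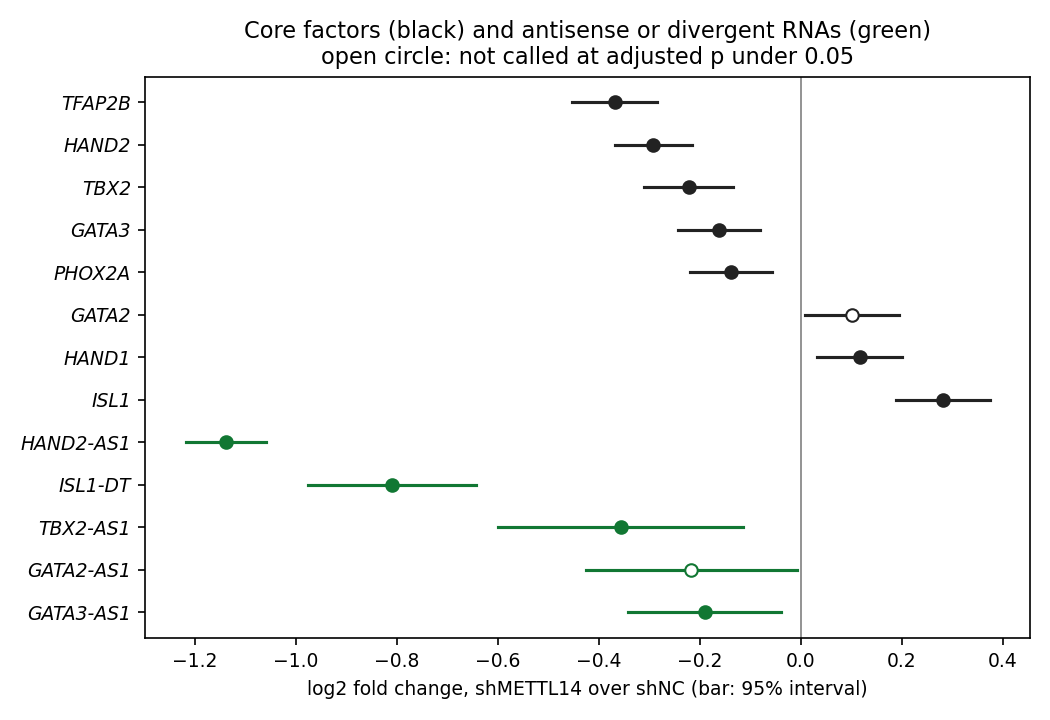
Log2 fold change (shMETTL14 over shNC) with 95% intervals for the 8 core factors (black) and the 5 antisense or divergent RNAs (green), with open circles for genes not called. HAND2-AS1 at -1.14 and ISL1-DT at -0.81 lie far below HAND2 at -0.29 and ISL1 at 0.28.

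The wider neighbourhood of the members was also examined. Among 60 tested genes that start within 500 kb of a member's start, 31 were called, 10 higher and 21 lower. That is a share of 51.7% beside 52.5% of all tested genes (27.2% higher, 25.3% lower). The median log2 fold change of the 60 was -0.18, against -0.001 over all tested genes. The 60 include the antisense or divergent RNAs already described and other noncoding RNAs. All 10 higher genes were protein-coding, whereas the 21 lower genes were of both kinds and held every noncoding RNA called. Coding and noncoding genes were not compared apart, so the median is not read as a trait of these neighbourhoods. Within 1 Mb, 52 of 101 genes were called, 51.5%.

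Genes with the most similar pattern over the 4 libraries were found by the Euclidean distance between centred log2 CPM values, among 10711 candidate genes. LIMCH1 (distance 0.00996) and HELZ (0.0123) were nearest to TFAP2B. PGAP1 (0.0109) and TMEM245 (0.0109) were nearest to HAND2, and PES1 (0.00595) and HMGN3 (0.00853) to ISL1. Their log2 fold changes were -0.37, -0.38, -0.29, -0.29, 0.28 and 0.28 in that order. Matching on these same libraries makes such values close to those of the factors by construction.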

How the data were processed

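RNA sequencing of 2 shNC and 2 shMETTL14 libraries was read as 150-base paired ends. The authors deposited raw counts per Ensembl gene, not normalized, in 1 table with 5 lines for reads given to no gene. These lines held 19.1% to 19.9% of counts and were left out. The submitters' processing notes name HISAT2 2.1.0, StringTie 1.3.6, HTSeq 0.13.5 and edgeR, and the builds GRCh38 and hg38, without roles. Annotation release and strand setting are not given in the sources used here. Symbols were found for 60647 of 60671 IDs, and 58453 IDs were in GENCODE 29.

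Genes passing filterByExpr (minimum count 10, minimum total 15) were tested with the edgeR 4.0.16 quasi-likelihood F-test in R 4.3.3, with TMM scaling, group alone in the design and Benjamini-Hochberg adjustment over all 16309 genes. CPM are relative to TMM-scaled library size, and SE were derived from the F statistic. The procedure was tested on simulated data in which far fewer genes changed than were called here, so that test does not vouch for these calls. Intervals hold the variation among the 4 libraries and floors (3 counts) hold counting error alone. Sequences and motif windows came from RefSeq with Python 3.11.15.

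The 8 members and the gene lists were chosen with earlier results of these data known. The members, METTL14 and any gene of a list could be named, and the 3 called genes of a list with the largest absolute log2 fold change, groups without overlap and a mean log2 CPM of 1 or more were always named, as were the 2 coding genes most like each of the 3 members that changed most. Results of some genes that this rule names are not reported here. Alternatives were RLE, upper quartile and library-size scaling, DESeq2 1.42.0, no filter, at least 10 counts in every library, the replicate number as a block, and leaving out each library. The same fits for single list genes were added after seeing the data. Same-numbered libraries did not deviate together (Pearson 0.0725 over 11625 genes), so the numbers were not taken as pairs.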

Additional observations from a re-analysis of the deposited data

How the results depend on the processing

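Log2 fold changes of HAND2, GATA3, ISL1, TBX2, TFAP2B and METTL14 kept their direction and their call in all 11 alternatives. HAND1 was not called with upper quartile scaling (0.049, adjusted p 0.328), library size alone (0.0715) or DESeq2 (0.1124), and ranged from 0.0992 to 0.1349 when 1 library was left out. PHOX2A ranged from -0.1823 to -0.0921 in those fits and GATA2 from 0.054 to 0.1505, each crossing the threshold in 2 of 4. With DESeq2, 1 paralog, 4 mesenchymal regulators, 2 antisense or divergent RNAs and 0 Schwann cell precursor markers were called, and without a filter on low counts again 0 of the latter, with an unadjusted p under 0.05 for 0 and 2 of them. DESeq2 called 6022 genes in all, each of which edgeR called too. The median level of the members was 183 with the longest coding transcript and 252 with all exons. The cause of these changes was not tested.

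With the replicate number as a block, 8 members were called (GATA2 at 0.1001, adjusted p 0.0195) and 8926 genes in all. Same-numbered libraries share only a number, so this fit is an alternative and not a paired result. Leaving out a library left 1 library in an arm, which was assumed to vary like the other group, and called 5 to 8 members and 7287 to 7458 genes. Of 73 called list genes, 53 kept their call in every alternative, 20 lost it in at least 1 and 0 changed direction. With 2 libraries per group, an exact test could not pass the threshold, and every call rests on the variance that edgeR shares across genes (biological coefficient of variation 3.45%).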
